A study of Mus musculus with 6 samples.

Results

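NF-kB is a family of dimeric transcription factors, and the genes described here encode its subunits, its inhibitors, the feedback protein Tnfaip3 and the kinase Ikbkb. The set was a list of 10 gene symbols (Nfkb1, Nfkb2, Rel, Rela, Relb, Nfkbia, Nfkbib, Nfkbie, Tnfaip3 and Ikbkb). Its members were the probes whose only symbol in the platform annotation was on that list. Of the 10 genes, 9 had such a probe, with 11 probes in all out of 38467 on the array; Nfkb1 is not analysed here. The values came from a fit on 27046 genes and unnamed probes, and 18793 of these carried a symbol.

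The samples were cultures of C3H10T1/2, mouse embryo cells that are used as a model of mesenchymal progenitors. In 3 cultures the cells received 1 µM dexamethasone, a synthetic glucocorticoid, for 90 minutes, and in 3 cultures the solvent DMSO as vehicle. Each culture was measured on its own two-colour array, Cy3 labelling the sample and Cy5 a pool common to all arrays. The pool held RNA of the same line given DMSO, dexamethasone or, by the labels, myostatin, a member of the TGF-beta family; the series description names only vehicle and treated cells. All groups share 1 immortal line and 1 time point. A value is read here as the log2 ratio of sample and pool. It says how a transcript compares with the pool and not how abundant it is. Fewer cells making a transcript and less of it per cell cannot be told apart.

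In resting cells the inhibitors Nfkbia, Nfkbib and Nfkbie (the IkB proteins) hold NF-kB dimers in the cytoplasm. Inflammatory signals activate the IkB kinase, whose main catalytic subunit in this branch is Ikbkb; it marks the inhibitors for destruction, and the freed dimers enter the nucleus. Nfkbia, Tnfaip3, Relb and Nfkb2 are themselves known NF-kB target genes, which makes the pathway self-limiting. The glucocorticoid receptor is known to restrain NF-kB activity, and Nfkbia is known as a glucocorticoid-induced gene in several cell types. The comparison asks how the transcripts of this machinery stood after a short exposure to dexamethasone.

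The promoter windows below show where letters of the NF-kB binding consensus lie at 3 members whose dexamethasone and vehicle values did not overlap. They come from RefSeq on GRCm38.p6 and span 250 bases before to 50 after the annotated start of the gene, which is their strand 5′ to 3′. Capitals mark matches to the kappaB consensus, searched on both strands. The Nfkbia window is chr12:55492598-55492897 on the minus strand, the Tnfaip3 window chr10:19015361-19015660 on the minus strand and the Nfkb2 window chr19:46304487-46304786 on the plus strand.
Nfkbia: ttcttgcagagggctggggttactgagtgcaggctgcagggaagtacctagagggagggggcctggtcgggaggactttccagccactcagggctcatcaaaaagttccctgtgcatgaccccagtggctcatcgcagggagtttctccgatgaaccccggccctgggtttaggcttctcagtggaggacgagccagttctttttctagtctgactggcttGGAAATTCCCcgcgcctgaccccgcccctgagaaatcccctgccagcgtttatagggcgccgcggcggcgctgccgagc
Tnfaip3: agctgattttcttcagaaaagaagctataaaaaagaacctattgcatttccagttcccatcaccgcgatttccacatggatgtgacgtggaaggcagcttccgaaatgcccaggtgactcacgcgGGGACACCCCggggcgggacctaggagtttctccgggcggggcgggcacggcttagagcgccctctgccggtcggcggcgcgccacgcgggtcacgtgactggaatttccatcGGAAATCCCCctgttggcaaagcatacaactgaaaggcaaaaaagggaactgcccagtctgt
Nfkb2: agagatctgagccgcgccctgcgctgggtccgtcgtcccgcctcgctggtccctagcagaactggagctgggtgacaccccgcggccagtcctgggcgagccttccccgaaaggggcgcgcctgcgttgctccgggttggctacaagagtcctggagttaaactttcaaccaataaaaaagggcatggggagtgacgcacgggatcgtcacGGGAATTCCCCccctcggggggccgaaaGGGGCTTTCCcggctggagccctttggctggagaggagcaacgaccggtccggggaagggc

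The RefSeq table held windows for 7 of the 10 genes, 10 windows in all, since Nfkb2 had 3 and Tnfaip3 had 2. A kappaB match was present in 7 of the 10 windows, belonging to 5 genes (Nfkb2, Rel, Nfkbia, Nfkbie and Tnfaip3), while 8.46% of all 32851 windows in the table held one. In Nfkbia the match GGAAATTCCC began at position -29 relative to the start. The first Tnfaip3 window held GGGACACCCC from position -125 and GGAAATCCCC from -12. In the first Nfkb2 window lay GGGAATTCCC from -39, overlapping GGAATTCCCC, and GGGGCTTTCC from -11. The windows of Rela and Nfkbib and the second window of Tnfaip3 had no match to these letters. The glucocorticoid response element, searched as GNACA and TGTNC with 3 bases between them, was in 0 of the 10 member windows and in 0.475% of all windows. A match is a string of letters and not a measured site.

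The arrays were unequal, which bears on every value below. Missing values numbered 1695 to 4290 on the dexamethasone arrays and 552 to 932 on the vehicle arrays, and array medians ran from -0.12 to 0.57 with dexamethasone and from -0.12 to 0.16 with vehicle. The median difference over all genes and unnamed probes, dexamethasone minus vehicle, was 0.32, and median centring of the arrays brought it to 0.02. Arrays dexamethasone 1, vehicle 1 and vehicle 2 resembled each other (Spearman coefficients of 0.40 to 0.55 across all probes), as did dexamethasone 2, dexamethasone 3 and vehicle 3 (0.34 to 0.57), while pairs across these 2 sets ran from -0.33 to 0.07. Differences are therefore also given within each set. That ratios run sample over pool is likely, though the labels leave it unsettled; 5 of 6 textbook receptor targets (Dusp1, Fkbp5, Per1, Sgk1 and Tsc22d3, but not Zbtb16) were higher in that reading, and if they run the other way, higher and lower trade places throughout. Over 13 markers of blood, endothelial and epithelial cells the median difference was 1.19 and 11 lay above 0, and over 8 mesenchymal markers it was -0.47 with 2 above 0; their part in the results was not tested. Ratios to a pool give no level, so cell identity could not be checked from them.

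None of the member differences passed the test. limma called 0 of 9 member genes at a Benjamini-Hochberg adjusted p under 0.05, and it called 0 of all 27046 (0%). Taken as single probes, 0 of the 11 were called, and 0 of 36465 (0%). By unadjusted p under 0.05, 1 member was higher (Nfkbia) and 3 were lower (Tnfaip3, Relb and Nfkb2), where 4.43% of all genes and unnamed probes were higher and 0.995% lower. All 3 dexamethasone values lay above all 3 vehicle values for 1 of 9 members and below them for 4 (Relb, Nfkb2, Tnfaip3 and Ikbkb). The same held for 9.95% and 7.29% of the 22880 genes and unnamed probes measured on all arrays. The median difference of the 9 members was -0.21, against 0.32 for all genes and unnamed probes, and 7 of the 9 lay below that 0.32. For genes with a symbol alone the median was 0.24.

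**Figure D1:**
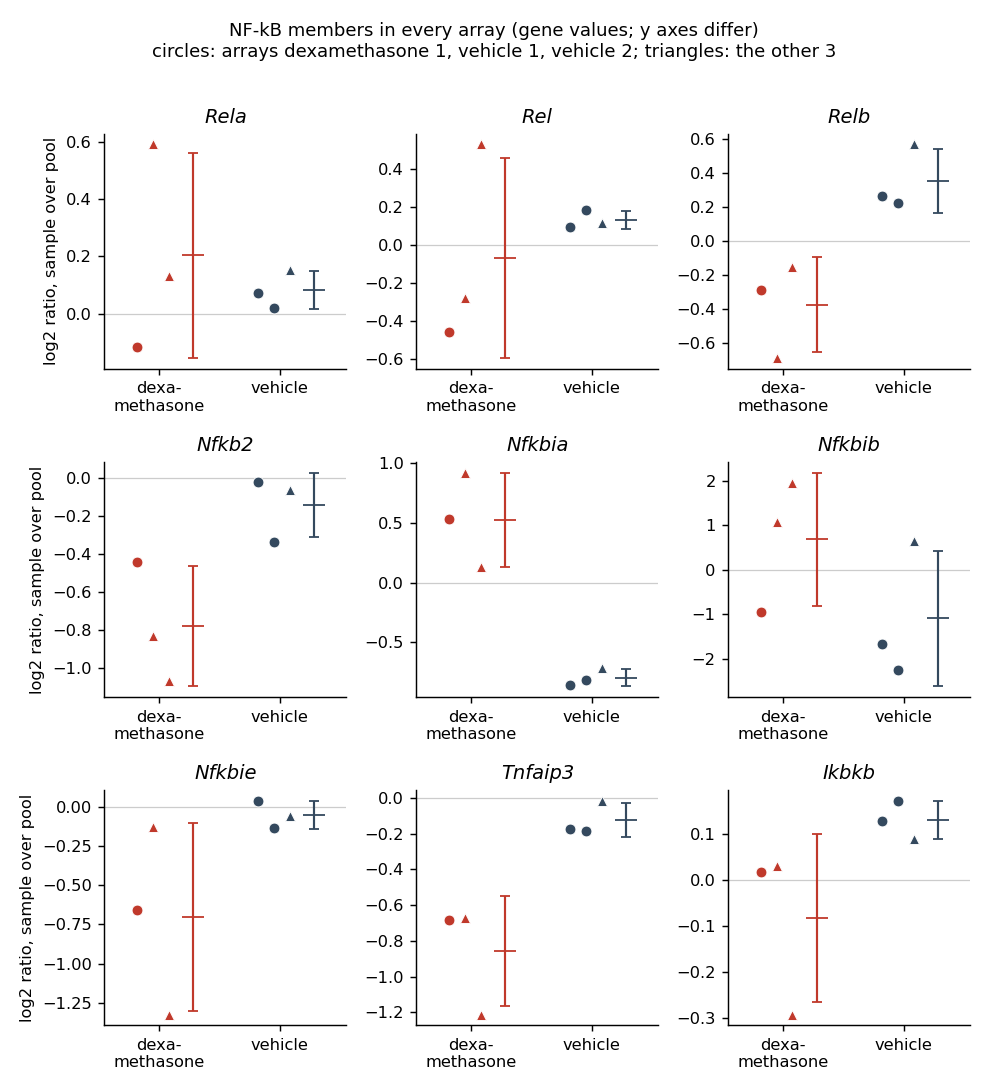
Log2 ratio of sample over pool for each of the 9 member genes on every array, dexamethasone on the left (red) and vehicle on the right (dark blue), with the mean and SD of 3 arrays beside the points. Circles are dexamethasone 1, vehicle 1 and vehicle 2 and triangles the other 3 arrays. Nfkbia is the 1 gene with all dexamethasone points above all vehicle points, while Relb, Nfkb2, Tnfaip3 and Ikbkb show the opposite order.

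Nfkbia encodes the inhibitor that captures most Rela-containing dimers and is resynthesised after each round of activation. Its log2 ratios were 0.53, 0.92 and 0.13 on dexamethasone arrays 1, 2 and 3, against -0.86, -0.82 and -0.72 on vehicle arrays 1, 2 and 3. As deposited, every dexamethasone culture stood above the pool and every vehicle culture below it. After median centring dexamethasone 3 read -0.28, still above every vehicle value. The means were 0.53 ± 0.39 with dexamethasone and -0.80 ± 0.07 with vehicle (SD, n = 3 each), a difference of 1.33 ± 0.26 (SE) on the log2 scale or 2.51-fold higher with dexamethasone. The 95% interval ran from 0.66 to 1.99, and the limma adjusted p was 0.430 (unadjusted 0.0035, rank 220 of 27046). Within the first set, dexamethasone 1 minus the mean of vehicle 1 and 2, the deposited values differed by 1.37. Within the second set, the mean of dexamethasone 2 and 3 minus vehicle 3, they differed by 1.24. After median centring the difference was 1.02 over all arrays, and 1.38 and 0.91 within the sets.

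Nfkbib, whose protein also retains NF-kB dimers in the cytoplasm, stood at -0.96, 1.07 and 1.96 with dexamethasone, against -1.67, -2.26 and 0.63 with vehicle. The groups overlapped over the 6 arrays but not inside either set, and in both groups the arrays of the second set (dexamethasone 2 and 3, vehicle 3) were the high ones. The difference of 1.79 ± 1.11 (SE) had a 95% interval from -1.04 to 4.62 and a limma adjusted p of 0.732. With a block for the 2 sets it was 0.94, so over 1.5 times smaller; within the sets it was 1.00 and 0.88. Leaving out 1 array gave 1.15 (without dexamethasone replicate 3) to 2.65 (without vehicle replicate 3).

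Nfkbie, the IkB member known to hold Rel- and Rela-containing dimers, had 2 probes that disagreed. Probe mMC013863 read -0.81, -0.67 and -2.86 with dexamethasone, against -0.07, -0.08 and -0.08 with vehicle. All 3 dexamethasone values were lower, and the third was far from the other two. Probe mMA033001 read -0.51, 0.42 and 0.20 with dexamethasone, against 0.15, -0.19 and -0.04 with vehicle, and these overlapped. The differences were -1.37 ± 0.64 and 0.07 ± 0.30 (SE), each with a limma adjusted p over all probes (0.694 and 0.935) that missed the threshold. Averaged per gene, the difference was -0.65 ± 0.35 (SE), with values of -0.66, -0.13 and -1.33 under dexamethasone and 0.04, -0.14 and -0.06 under vehicle. Removing probes with a sign of low signal left mMC013863 alone, and the gene value became -1.37. Without dexamethasone replicate 3 the gene value was -0.34, and -0.66 with that removal.

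**Figure D2:**
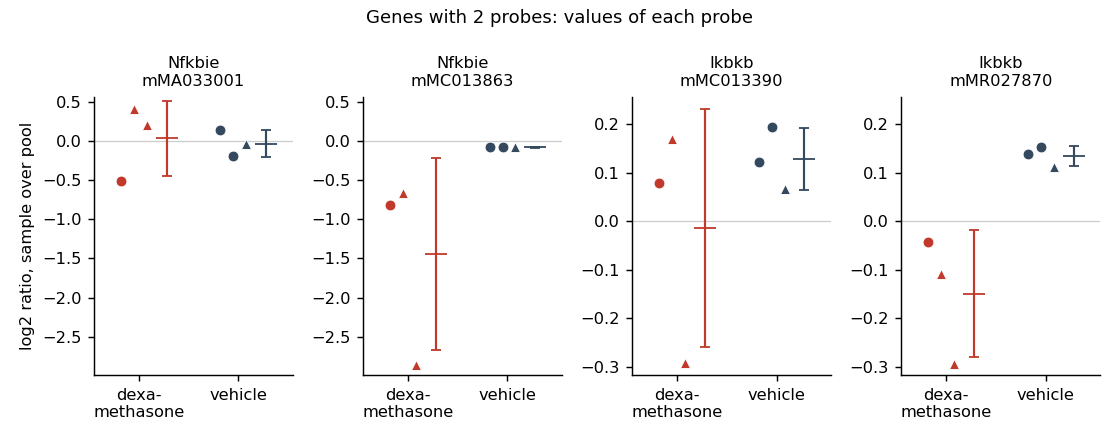
Log2 ratio of sample over pool for each probe of Nfkbie and Ikbkb, dexamethasone left (red) and vehicle right (dark blue), with the mean and SD of 3 arrays beside the points and symbols by array set as in the plot of members by array. For Nfkbie the dexamethasone points of mMC013863 all lie below vehicle while those of mMA033001 overlap it, and for Ikbkb the dexamethasone points of mMR027870 lie below vehicle while those of mMC013390 overlap it.

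Relb, a subunit whose protein pairs mainly with the processed Nfkb2 product, read -0.29, -0.69 and -0.15 with dexamethasone, against 0.26, 0.22 and 0.57 with vehicle. Dexamethasone cultures stood below the pool and vehicle cultures above it, with no overlap. The difference was -0.73 ± 0.23 (SE; -0.38 ± 0.28 with dexamethasone, 0.35 ± 0.19 with vehicle, SD, n = 3 each), 1.66-fold lower with dexamethasone, with a 95% interval from -1.33 to -0.13 and a limma adjusted p of 0.732. It was -0.53 and -0.99 within the sets.

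Nfkb2 encodes a precursor that acts as an inhibitor until it is processed into a DNA-binding subunit. It read -0.44, -0.83 and -1.07 with dexamethasone, against -0.03, -0.34 and -0.07 with vehicle, so the lowest vehicle value lay close to the highest dexamethasone value. The difference was -0.64 ± 0.24 (SE), 1.56-fold lower with dexamethasone, with a 95% interval from -1.25 to -0.02 and a limma adjusted p of 0.732. Within the sets it was -0.26 and -0.88.

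Rela and Rel, the subunits with a transactivation domain that act in the fast canonical branch, overlapped between the groups. Rela read -0.12, 0.59 and 0.13 with dexamethasone, against 0.07, 0.02 and 0.15 with vehicle, a difference of 0.12 ± 0.24 (SE) with a 95% interval from -0.50 to 0.75. Its sign was not stable, at -0.19 after median centring and, as deposited, -0.16 and 0.21 within the 2 sets. After median centring Rela differed by -0.15 and -0.12 within the sets. Rel read -0.46, -0.28 and 0.53 with dexamethasone, against 0.10, 0.19 and 0.12 with vehicle, a difference of -0.20 ± 0.31 (SE) with a 95% interval from -1.0 to 0.60. Without dexamethasone replicate 1 the Rel difference was -0.0042, and without dexamethasone replicate 3 it was -0.50. It was -0.51 after median centring and -0.77 after quantile normalization. Within the sets the Rel difference was -0.60 and 0.014 as deposited, and -0.59 and -0.32 after median centring.

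Tnfaip3 encodes a ubiquitin-editing enzyme that shuts off signalling to the IkB kinase. It read -0.68, -0.67 and -1.21 with dexamethasone, against -0.18, -0.19 and -0.02 with vehicle. All dexamethasone values were lower than all vehicle values. The means were -0.86 ± 0.31 with dexamethasone and -0.13 ± 0.09 with vehicle (SD, n = 3 each), 1.66-fold lower with dexamethasone. The difference of -0.73 ± 0.23 (SE) had a 95% interval from -1.32 to -0.15 and a limma adjusted p of 0.732, and it was -0.50 and -0.93 within the sets.

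Ikbkb, the kinase that phosphorylates the IkB proteins, had values close to those of the pool in both groups. Its gene values were 0.02, 0.03 and -0.29 with dexamethasone, against 0.13, 0.17 and 0.09 with vehicle. The groups did not overlap, and the difference was -0.21 ± 0.18 (SE), with a 95% interval from -0.68 to 0.26. Probe mMR027870 read -0.04, -0.11 and -0.30 with dexamethasone, against 0.14, 0.15 and 0.11 with vehicle, while probe mMC013390 read 0.08, 0.17 and -0.29, against 0.12, 0.19 and 0.07. The difference was -0.52 after median centring, where the groups overlapped, -0.68 after quantile normalization and -0.11 without dexamethasone replicate 3.

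**Figure D3:**
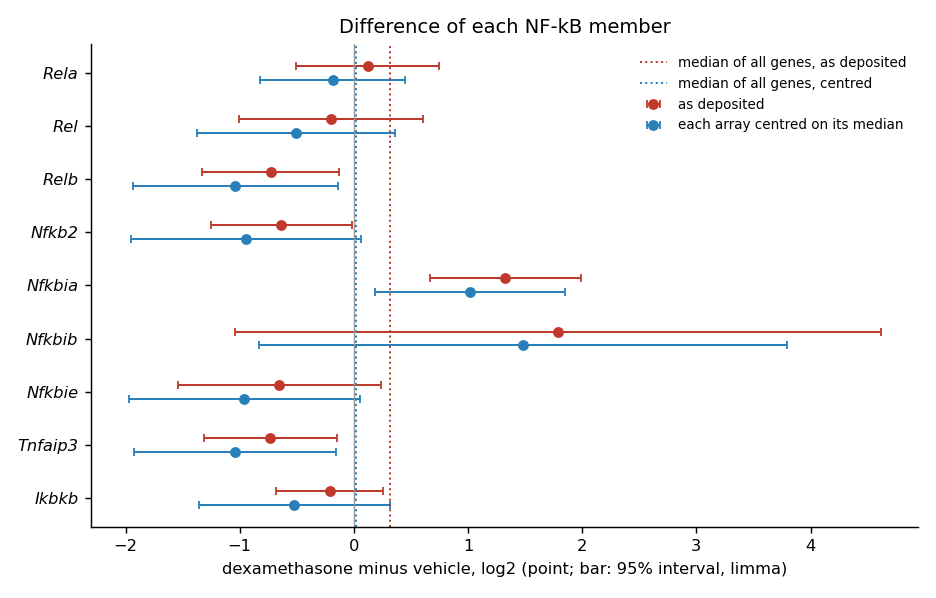
Difference dexamethasone minus vehicle for each member (log2, x axis) with its 95% interval from limma, as deposited (red) and with median centring of the arrays (blue); dotted lines are the medians of all genes and unnamed probes, 0.32 and 0.02. The Nfkbia interval lies above 0 and those of Relb and Tnfaip3 below 0 on both scales, while the Nfkb2 interval crosses 0 after centring.

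Relative to the shift of all genes, the members on the low side stood further out and Nfkbia less far. Less the all-gene median of 0.32, the differences were -1.05 for Relb, -1.05 for Tnfaip3, -0.96 for Nfkb2, -0.97 for Nfkbie and 1.01 for Nfkbia. The 0.32 includes unnamed probes. Over the 18793 genes with a symbol the median was 0.24, so the size of this shift depends on the features taken. The Tnfaip3 difference lay at the 5.43rd percentile of all differences, that of Relb at the 5.44th, that of Nfkb2 at the 6.47th and that of Nfkbia at the 82.0th. Removing probes with a sign of low signal left 17152 genes and unnamed probes, with a median difference of 0.17. Among them Nfkbia lay at percentile 88.2, Tnfaip3 at 3.1 and Nfkb2 at 4.4. limma called 29 of these 17152 (0.169%) and 0 of the 7 members among them; the smallest member adjusted p was 0.234, for Nfkbia. Relb and both Ikbkb probes were removed there because 1 value each matched the log2 of a quotient of small integers, which can occur by coincidence.

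The spread between dexamethasone cultures was the wider one on the arrays as a whole, members included. The SD of the 3 dexamethasone values exceeded that of the vehicle values for 8 of 9 members, Nfkbib being the exception, and for 84.2% of the 22880 genes and unnamed probes measured on all arrays, a share close to that of the members. The median SD was 0.36 with dexamethasone and 0.09 with vehicle over the members, and 0.71 with dexamethasone and 0.17 with vehicle over the 22880.

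**Figure D4:**
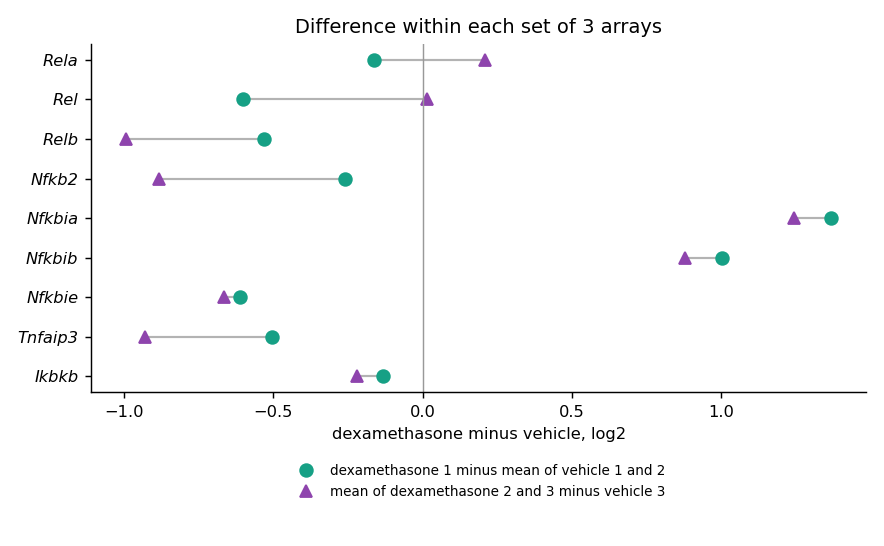
Difference dexamethasone minus vehicle (log2, x axis) of each member within the 2 sets of arrays that resembled each other; circles use dexamethasone 1, vehicle 1 and vehicle 2, triangles dexamethasone 2, dexamethasone 3 and vehicle 3. In these deposited values Nfkbia is at 1.37 and 1.24. Relb, Nfkb2, Nfkbie, Tnfaip3 and Ikbkb lie below 0 in both sets, while Rela and Rel change side. After median centring, not drawn here, Rela and Rel lie below 0 in both sets.

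Over the 6 arrays, the genes whose values followed Nfkbia most closely were Mid2, Igsf11 and Csrnp1, with Pearson coefficients of 0.995, 0.994 and 0.993 among 16510 genes with a symbol and values on all arrays. Csrnp1 averaged 1.08 with dexamethasone and -1.13 with vehicle, Igsf11 0.82 with dexamethasone and -0.89 with vehicle, and Mid2 0.57 with dexamethasone and -0.29 with vehicle. With so many genes and 6 arrays, coefficients of this size are a description of these arrays.

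Other genes of the pathway were described from 3 lists. For their counts by unadjusted p under 0.05, the shares over all genes and unnamed probes were 4.43% higher and 0.995% lower. Of 16 measured inhibitors and feedback genes beyond the members, limma called 0, and at the unadjusted threshold of 0.05 there was 1 higher and 0 lower. The higher one was Nfkbiz, which encodes a nuclear IkB protein that acts as a cofactor at selected NF-kB target genes. It read 0.43, 0.60 and 0.51 with dexamethasone, against -0.52, -0.42 and -0.45 with vehicle. As deposited the groups did not overlap. The difference was 0.97 ± 0.17 (SE) or 1.96-fold higher with dexamethasone, with a limma adjusted p of 0.361. Within the sets it was 0.90 and 1.00, and after median centring of the arrays 0.665. The deposited difference lay at percentile 73.5 of all differences. Zc3h12a, an RNase that degrades inflammatory mRNAs, differed by 0.52 ± 0.33 (SE), the ubiquitin ligase gene Itch by 0.93 ± 0.47 and Tax1bp1, an adaptor of Tnfaip3, by -0.50 ± 0.30. The second set of arrays held most of each of these 3 differences, with 0.78, 1.71 and -0.74 there for Zc3h12a, Itch and Tax1bp1, and 0.03, 0.02 and -0.05 in the first set. The median difference of the list was 0.02.

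Of 29 measured receptors, adaptors and kinases upstream of the inhibitors, limma called 0. By unadjusted p under 0.05, 1 was higher (Map3k8) and 3 were lower (Tlr2, Traf5 and Tab3). The shares over all genes and unnamed probes were 4.43% and 0.995%. Tlr2, a receptor for bacterial lipoproteins, read -0.61, -0.58 and -0.75 with dexamethasone, against 0.34, 0.37 and 0.38 with vehicle. Its difference of -1.01 ± 0.16 (SE) was a 2.01-fold lower ratio with dexamethasone, with a limma adjusted p of 0.330. Traf5, an adaptor of TNF receptor family members, read -0.64, -0.60 and -1.27 with dexamethasone, against 0.44, 0.23 and 0.42 with vehicle, a difference of -1.20 ± 0.26 (SE) and 2.30-fold lower. Both were of similar size in each set, at -0.96 and -1.04 for Tlr2 and -0.97 and -1.36 for Traf5. Tab3, a partner of the kinase Map3k7, differed by -0.47 ± 0.18 (SE), and Map3k8, a kinase held in check by the Nfkb1 precursor, by 1.17 ± 0.41, with 0.36 and 1.54 within the sets. The median difference of the list was 0.06.

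Of 33 measured genes known as NF-kB targets in other settings, limma called 0. By unadjusted p under 0.05, 3 were higher and 7 lower, where 4.43% of all genes and unnamed probes were higher and 0.995% lower. The chemokine genes Ccl7 and Ccl2 had the smallest p. Their differences of -2.30 ± 0.20 and -1.80 ± 0.20 (SE) were larger than that of any member with lower values, and both were called after the low-signal removal (limma adjusted p = 0.0401 and 0.0487), the only genes of the 3 lists that were. Of 9 further alternatives that keep that removal, 8 called 0 targets, among them median centring, both blocks and leaving out any array but dexamethasone 1. Ptgs2, which encodes cyclooxygenase-2, differed by -1.27 ± 0.18 (SE) and the death receptor gene Fas by -1.16 ± 0.19. The list as a whole was spread widely, with 17 differences above 0 and 16 below, a median of 0.00 and a range from -2.51 to 4.99.

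**Figure D5:**
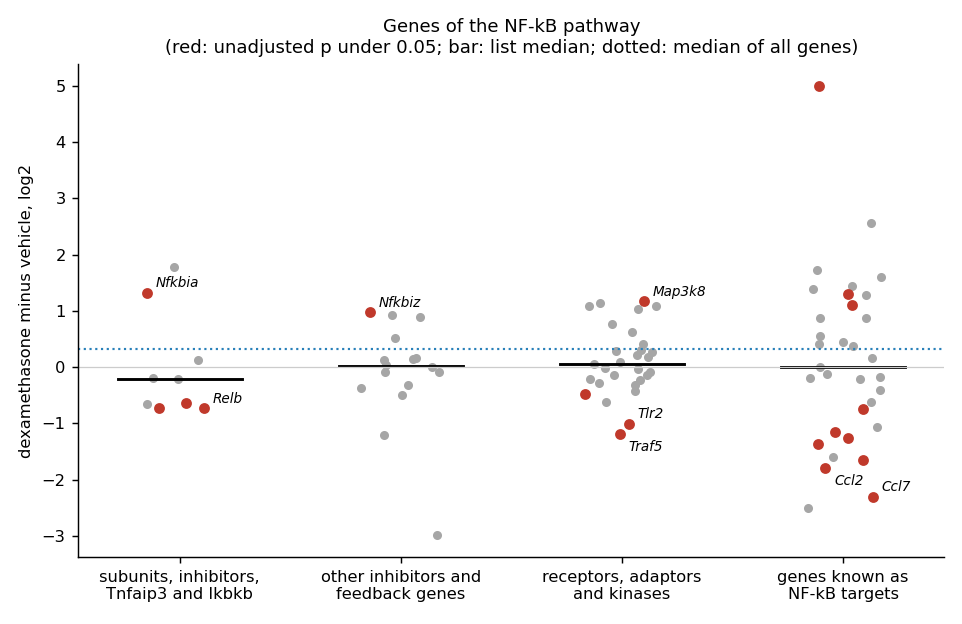
Difference dexamethasone minus vehicle (log2, y axis) of every measured gene in the member set and in 3 other lists of the pathway; red points have an unadjusted limma p under 0.05, bars are list medians and the dotted line is the all-gene median of 0.32. List medians are -0.21 for the members, 0.02 for other inhibitors, 0.06 for upstream genes and 0.00 for targets.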

How the data were processed

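The 6 cultures gave 6 two-colour arrays, grouped by sample titles. Per the labels' protocols, amino-allyl cDNA of each sample was coupled to Cy3 and that of the pool to Cy5. The values the authors deposited are read here as log2 ratios, because some coincide with the log2 of a quotient of small integers. The share ran from 1.86% on vehicle 1 to 12.7% on dexamethasone 3. What share coincidence alone would give was not worked out, so the scale remains an inference. On 4 of the arrays, 2 to 27 deposited values exceed 100 in size, so those columns were treated as a score that is a log2 ratio for nearly all probes. The authors used limma, per the submitters' processing notes; their background correction, normalization and genome build: not given in the sources used here. Precision is limited by the number of arrays.

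Probes with 1 symbol in the platform annotation (29456 of 38467; 760 had several and 8251 were unlisted) were averaged per gene. The annotation can be old; a RefSeq gene table, matched by Entrez identifier for 28735 probes, changed 0 symbols. At least 2 values per group were required. Differences of dexamethasone minus vehicle were fitted in limma 3.58.1 under R 4.3.3 (no block, two-sided, Benjamini-Hochberg at 0.05 over the whole table), and the same was run probe by probe on 36465 probes. The fit was tested on simulated independent normal values with the same SD in both groups and no array sets. That test therefore does not cover the unequal spread and the array sets seen here. An exact permutation test of 3 against 3 arrays cannot go below 0.1, so none was run. The series description calls the cultures biological replicates.

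The low-signal filter left out 15355 probes that were missing on some array, exceeded 10 in size there, or matched the log2 of a quotient of 2 integers up to 10. Same-numbered replicates were not treated as pairs, because the labels say nothing of pairing. Deviations from the group means correlated at 0.30, -0.10 and 0.24 for numbers 1, 2 and 3. For unlike numbers they ran from -0.37 to 0.20. These values do not settle whether cultures were paired, and a replicate block was among the alternatives. Members, lists, the array sets and the filter were chosen with earlier results of these data known. Named genes were all members, the 4 smallest p per list, the receptor targets and the 3 genes most correlated with the non-overlapping member of smallest p. Alternatives numbered 25, of which 9 (the filter combined with another choice) were added after seeing the data.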

Additional observations from a re-analysis of the deposited data

How the results depend on the processing

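No member gene was called by limma under any of the 25 alternatives (9 members tested in 15, and 7 in the 10 with the low-signal filter, which removes Relb and Ikbkb), and no member probe under any of the 10 in which probes were tested. Nfkbia kept its direction throughout, from 1.02 (median centring) to 1.52 (without dexamethasone replicate 3), with a smallest adjusted p of 0.0681 (low-signal filter, without dexamethasone replicate 1). Relb ran from -1.52 to -0.57 over its 15, Tnfaip3 from -1.04 to -0.55 and Nfkb2 from -0.95 to -0.49. Only Rela reversed: -0.19 after median centring, with or without the low-signal filter, -0.30 after quantile normalization and -0.073 without dexamethasone replicate 2, with or without the filter; leaving out 1 array gave -0.073 to 0.28. The median of the members was -0.52 after median centring, -0.77 after quantile normalization and -0.51 with filter and centring; leaving out 1 array gave -0.34 to -0.19, and with the filter -0.49 (without dexamethasone replicate 3) to -0.0042 (without dexamethasone replicate 1).

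Over all genes, limma called 5 when values on all 6 arrays were required, 29 with the low-signal filter, and with the filter 0 to 934 without 1 array (934 without dexamethasone replicate 1, 5 without dexamethasone replicate 2). Fewer features were tested in the first 2 settings, and the cause was not tested further. Dexamethasone 1 was the only dexamethasone array in the set with vehicle 1 and 2. Without it, treatment and array set largely coincide and cannot be told apart. That limit applies to the 934 calls and to the smallest Nfkbia adjusted p above. Targets called were 2 with the filter, and with it 0 to 9 without 1 array; other inhibitors ran from 0 to 1 and upstream genes from 0 to 3, the highest each without dexamethasone replicate 1. With the replicate block limma called 0 genes (Nfkbia adjusted p = 0.707), so the block changed no member call. Added to the filter, the replicate block, the array-set block and median centring each left 0 genes called.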
